A study of Mus musculus with 8 samples.

Results

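The crystallin family was read in whole retinas of WT and rd10 mice through 10 of its genes: Cryaa, Cryab, Cryba1, Cryba2, Cryba4, Crybb1, Crybb2, Crybb3, Crygs and Crygn. The members were found by matching the Ensembl identifiers of the count table to these symbols, and all 10 were among its 57010 identifiers. Poly(A) RNA of 1 whole retina per library was sequenced at postnatal day (P) 15 for WT and at P15, P18 and P21 for rd10, with 2 libraries in each of the 4 groups. Mice of the rd10 line are homozygous for a mutation of Pde6b, the beta subunit of the rod phosphodiesterase, and lose their photoreceptors from about the third postnatal week. WT retinas were sequenced at P15 alone, so that genotype and age cannot be told apart in the comparisons of rd10 P18 and rd10 P21 with WT P15, and all 3 comparisons with WT P15 share the same 2 WT libraries.

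Crystallins are the abundant soluble proteins that give the lens its transparency and refractive power. The alpha crystallins, Cryaa and Cryab, are small heat shock proteins that hold unfolding proteins in solution, and Cryab is also made outside the lens, in glia, muscle and heart. The beta and gamma crystallins share a fold of repeated Greek key motifs and are known mainly as structural proteins of lens fibre cells, although some have been described in retina.

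Libraries held between 28076947 and 33724562 counts, and 20457 genes passed the filter on low counts. Libraries of 1 group differed beyond sampling noise, with a chi-square per gene between 23.02 and 94.98. All 10 rod markers had counts in every library, with 768308 to 1547861 counts in sum. Counts of 4 genes of the Y chromosome lay at 4 and 12 in the WT P15 libraries and at 5530 and 6054 in the rd10 P15 libraries, so that sex and genotype cannot be told apart at P15. The rd10 P18 and rd10 P21 groups each held 1 library with 6011 or 7193 and 1 with 19 or 3 such counts. Rd10 P18 replicate 1 stood apart from the others in the lens crystallins, and values without it are given where a result rests on it.

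The promoters of the 4 lens crystallins with the most counts in rd10 P18 retinas are given first, since Maf proteins, which bind sites with the core TGCTGA, are known to drive crystallin genes in the lens. Each sequence is 300 bases long, from 250 before to 50 after the start of the gene on the gene's strand (RefSeq, GRCm38.p6). Capitals mark TGCTGA on either strand (TCAGCA on the reverse) and TATAAA, the core of a TATA box.
Crybb3, chr5:113081535-113081834, minus strand: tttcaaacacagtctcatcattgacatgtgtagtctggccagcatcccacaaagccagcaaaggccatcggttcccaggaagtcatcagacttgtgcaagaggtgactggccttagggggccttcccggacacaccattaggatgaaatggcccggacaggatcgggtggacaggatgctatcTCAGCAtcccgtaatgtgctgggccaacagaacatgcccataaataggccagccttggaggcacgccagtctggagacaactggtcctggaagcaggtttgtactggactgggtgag
Crybb1, chr5:112255570-112255869, plus strand: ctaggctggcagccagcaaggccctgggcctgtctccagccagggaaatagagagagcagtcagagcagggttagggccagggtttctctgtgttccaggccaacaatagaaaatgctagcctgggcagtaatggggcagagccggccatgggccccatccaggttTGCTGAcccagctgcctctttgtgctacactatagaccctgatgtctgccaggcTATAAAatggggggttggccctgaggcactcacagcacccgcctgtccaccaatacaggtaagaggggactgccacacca
Cryba4, chr5:112252469-112252768, minus strand: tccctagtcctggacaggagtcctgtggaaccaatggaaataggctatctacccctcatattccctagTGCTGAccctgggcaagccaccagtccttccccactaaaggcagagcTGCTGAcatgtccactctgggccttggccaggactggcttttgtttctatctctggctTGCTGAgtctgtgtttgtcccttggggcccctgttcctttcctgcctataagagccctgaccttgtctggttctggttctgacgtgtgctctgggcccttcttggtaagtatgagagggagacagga
Cryaa, chr17:31677681-31677980, plus strand: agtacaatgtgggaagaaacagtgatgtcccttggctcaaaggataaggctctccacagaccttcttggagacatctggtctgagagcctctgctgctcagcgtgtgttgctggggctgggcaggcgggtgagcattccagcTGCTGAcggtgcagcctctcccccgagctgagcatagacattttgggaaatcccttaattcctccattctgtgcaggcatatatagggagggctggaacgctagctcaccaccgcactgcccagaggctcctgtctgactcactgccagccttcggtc

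RefSeq entries were matched for 9 of the 10 members and for the 6 genes of the gamma cluster, and Cryab was not among them. TGCTGA was found in 10 of these 15 promoters, against 19.5% of 32851 promoters of the same length, and in 8 of the 9 members, all but Crybb2. Cryba4 held 3 copies, beginning 182, 135 and 77 bases before the start, while Crybb1 held 1 copy at 84 bases before the start and TATAAA at 30 bases before it. TATAAA was found in 4 of the 15, Cryba1, Cryba2, Crybb1 and Crygs, against 13.6% of all promoters. GAANNTTC, the core of a heat shock element, was found in 0 of the 15 and in 7.86% of all promoters. Matches of letters are a description of these windows and not a measure of binding.

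Among the 10 members, Cryab had the most counts in every library. It took 403 and 363 counts in the WT retinas, while the rd10 retinas had 547 and 462 counts at P15, 842 and 1209 at P18 and 1051 and 887 at P21. The other 9 members together took 44 and 55, 94 and 48, 506 and 171, and 170 and 98 counts in the same order. Cryab thus made up 85.3% to 90.6% of the counts of all 10 members in 7 libraries. In rd10 P18 replicate 1 it made up 62.5% (95% Wilson interval 59.9% to 65.0%), below the intervals of all the others, the lowest of which began at 82.4%. These intervals cover counting error only.

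**Figure D1:**
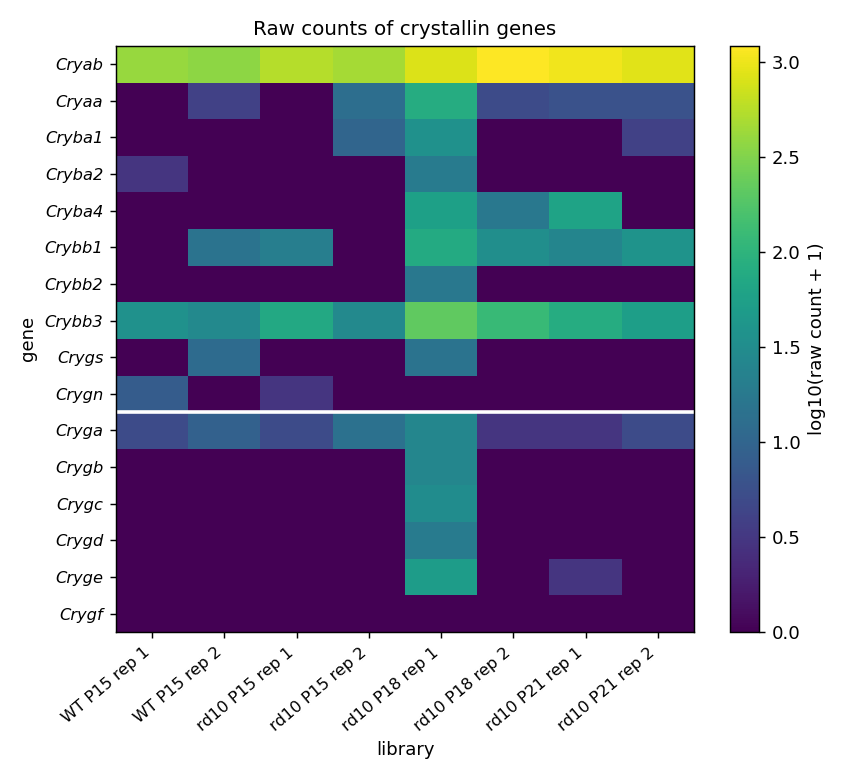
Raw counts of the 10 crystallin members (above the white line) and of the 6 genes of the gamma cluster (below it) in each library, on a colour scale of log10(raw count + 1). Cryab is bright in all 8 columns, with 363 to 1209 counts, while most other genes are dark outside rd10 P18 replicate 1, where 9 of the 10 members had counts.

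Cryab (ENSMUSG00000032060, chr9:50751325-50756636, plus strand, GRCm38) stood at 14.9 and 11.8 CPM (counts scaled to library size by TMM) in the WT retinas and at 17.4 and 16.3 CPM in those of rd10 mice at P15. Older rd10 retinas had 25.1 and 38.1 CPM on P18, then 30.01 and 31.01 CPM on P21. The group means were 13.3 ± 2.22, 16.9 ± 0.792, 31.6 ± 9.17 and 30.5 ± 0.710 CPM (SD, n = 2). The rd10 P18 and P21 libraries were all above the rd10 P15 libraries, which were in turn above the WT libraries, while P18 and P21 overlapped. Of all genes tested, 24.8% had both libraries of rd10 P15 above both of WT P15, and for P18 and P21 the shares were 24.1% and 24.9%. Against rd10 P15 they were 21.9% and 26%.

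Cryab rose in rd10 P18 against WT P15 by a log2 fold change of 1.25 (SE 0.23, edgeR adjusted p = 0.04), and it was the only member called. A call needed an adjusted p under 0.05 and a log2 fold change beyond 1 in either direction. Of the 6 members tested 1 was called, where 1.48% of all genes tested were called, and 4 members were not tested. In rd10 P21 against WT P15, Cryab differed by almost as much, 1.20 on the log2 scale (SE 0.23), but was not called (edgeR adjusted p = 0.0839). In rd10 P15 against WT P15 the difference was 0.34 (SE 0.23, edgeR adjusted p = 0.612).

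The call of Cryab at P18 stood close to the threshold. It was lost without WT P15 replicate 1 (adjusted p = 0.172 by edgeR), WT P15 replicate 2 (0.199), either of the rd10 P15 libraries (0.0745 for replicate 1 and 0.076 for replicate 2), rd10 P21 replicate 1 (0.0602) or rd10 P21 replicate 2 (0.0567). It was also lost with only the 4 libraries compared (0.131) and with replicate number as a block (0.0689). Without rd10 P18 replicate 2, which had the highest level, the log2 fold change was 0.92 and thus under the fold threshold, and without rd10 P18 replicate 1 it was 1.52 (edgeR adjusted p = 0.0125). At P21, Cryab was called once rd10 P18 replicate 1 (edgeR adjusted p = 0.0144) or rd10 P18 replicate 2 (0.0156) was left out of the fit. In a whole retina, a changed share of cells of a type and a changed amount of RNA per cell cannot be told apart.

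Among the rd10 ages, Cryab was 0.91 higher on the log2 scale at P18 than at P15 (SE 0.23, edgeR adjusted p = 0.165) and 0.86 higher at P21 than at P15 (SE 0.23, edgeR adjusted p = 0.182). Without rd10 P18 replicate 1, the difference of P18 from P15 was 1.18 and was called (edgeR adjusted p = 0.0484). Between P21 and P18 it was -0.05 (SE 0.23, edgeR adjusted p = 0.956), and its sign turned without rd10 P18 replicate 2, to 0.28. The order of the means, rd10 P18, rd10 P21, rd10 P15 and WT P15, therefore holds no pair of neighbours that differed past the threshold.

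**Figure D2:**
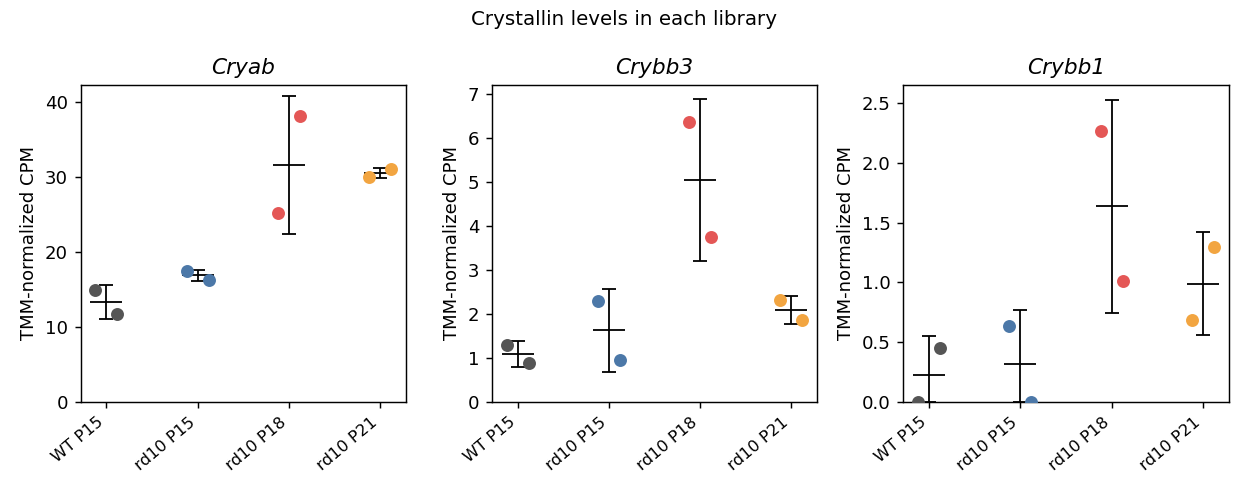
Levels of Cryab, Crybb3 and Crybb1 in TMM-normalized CPM, with 1 point per library, the group mean as a horizontal line and the SD over the 2 libraries as a bar that ends at 0. Cryab is at 25.1 CPM or more in each rd10 P18 and P21 library and at 17.4 CPM or less at P15, and Crybb3 reaches 6.35 CPM in rd10 P18 replicate 1.

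Crybb3 (ENSMUSG00000029352, chr5:113075839-113081584, minus strand), a basic beta crystallin, was the only other member with counts in all 8 libraries. It took 35 and 27 counts in the WT retinas, while the rd10 retinas had 72 and 27 counts at P15, 213 and 119 at P18 and 81 and 53 at P21. Both rd10 P18 libraries lay above all others. Of all genes tested, 24.1% had both P18 libraries above both of WT P15, and 21.9% above both of rd10 P15. The means of Crybb3 were 1.08 ± 0.297, 1.62 ± 0.947, 5.05 ± 1.84 and 2.08 ± 0.325 CPM (SD, n = 2). Against WT P15 the log2 fold change was 2.22 at P18 (SE 0.56), larger than that of Cryab, but its edgeR adjusted p was 0.0937. DESeq2 called it (adjusted p = 0.0106), as did edgeR without rd10 P18 replicate 2, where the log2 fold change was 2.55 (adjusted p = 0.0311).

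At P21 the log2 fold change of Crybb3 against WT P15 was 0.94 (SE 0.55, edgeR adjusted p = 0.566), and at P15 it was 0.58 (SE 0.55, edgeR adjusted p = 0.738). Without rd10 P15 replicate 1, which alone had 72 counts, the difference at P15 was -0.18. Between rd10 P21 and rd10 P18, Crybb3 was lower by a log2 fold change of -1.28 (SE 0.54, edgeR adjusted p = 0.452), where Cryab had -0.05. With a library left out, the value of Crybb3 ranged from -1.61 to -0.85.

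Crybb1 (ENSMUSG00000029343, chr5:112255815-112269585, plus strand), another basic beta crystallin, had 0 and 14 counts in the WT retinas, and in the rd10 retinas it had 20 and 0 at P15, 76 and 32 at P18 and 24 and 37 at P21. Each library at P18 and P21 was above each library at P15, the closest being 0.685 against 0.636 CPM. Of all genes tested, 24.1% at P18 and 24.9% at P21 had both libraries above both of WT P15. Against rd10 P15 the shares were 21.9% and 26%. The log2 fold changes against WT P15 were 2.81 at P18 (SE 1.72, edgeR adjusted p = 0.448) and 2.08 at P21 (SE 1.70, edgeR adjusted p = 0.715), with standard errors several times that of Cryab. Without WT P15 replicate 1, which had 0 counts, they were 1.86 and 1.13. Without WT P15 replicate 2, which held all 14 WT counts, the fitted values of 8.66 and 7.93 have no WT count behind them and are no bound.

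Cryba4 (ENSMUSG00000066975, chr5:112246493-112252518, minus strand), an acidic beta crystallin, lies head to head with Crybb1, the starts being 3297 bases apart. It had 0 counts in all 4 libraries at P15, while the rd10 retinas had 55 and 16 at P18 and 60 and 0 at P21. Against a floor of 3 counts for both WT libraries together, the pooled P18 level was 21-fold higher and the P21 level 18.2-fold. The floor limits the WT side only, and the spread between the rd10 libraries is not in these values. Without rd10 P18 replicate 1 the value for P18 was 9.74-fold. The P21 value rested on replicate 1, since replicate 2 had 0 counts. The edgeR adjusted p was 0.256 at P18 and 0.404 at P21.

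Cryaa (ENSMUSG00000024041, chr17:31677807-31681733, plus strand), the lens partner of Cryab, had 0 and 3 counts in the WT retinas, and in the rd10 retinas it had 0 and 12 at P15, 79 and 4 at P18 and 5 and 5 at P21. The ratio of rd10 P18 to WT P15 was 24.6 (counting interval 8.12 to 121), and 79 of its 83 counts came from replicate 1. Without that library the ratio was 2.43 (counting interval 0.412 to 16.6), an interval that includes 1. At P21 the ratio was 3.04 (counting interval 0.782 to 17.2). The edgeR adjusted p at P18 was 0.338.

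The remaining members were at or near the floor in most libraries. Cryba1 had 9 counts in rd10 P15 replicate 2, 35 in rd10 P18 replicate 1, 3 in rd10 P21 replicate 2 and 0 in the others. Cryba2 had 18 counts in rd10 P18 replicate 1 and 2 in WT P15 replicate 1, and Crybb2 had 16 in rd10 P18 replicate 1 alone. Crygs, which passed the filter, had 11 counts in WT P15 replicate 2 and 14 in rd10 P18 replicate 1. Crygn had 7 counts in WT P15 replicate 1, 2 in rd10 P15 replicate 1 and 0 in the others, WT P15 replicate 2 among them. A count of 0 allows a level of up to 0.0857 to 0.111 CPM, depending on the library.

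The 4 members that did not pass the filter, and were not tested, were Cryba1, Cryba2, Crybb2 and Crygn. Cryba4 and Cryaa passed it through the groups in which they were high, so no median over the tested members is given. Cryba4 is counted below among members with an unadjusted p under 0.05, at P18 and P21 against WT P15 and against rd10 P15. Those counts are therefore no evidence when set beside the shares of all genes. At P15 against WT P15, 0 of the 6 tested members were called by edgeR (0.23% of all genes tested), with 0 at an unadjusted p under 0.05 (12.3%) and 0 by DESeq2 (2.13%). At P18 against WT P15, 3 had an unadjusted p under 0.05 (17.4%), and DESeq2 called 2 (4.74%), Cryab and Crybb3. At P21 against WT P15, 0 were called by edgeR (0.386% of all genes), with 2 at an unadjusted p under 0.05 (11.8%) and 1, Cryab, by DESeq2 (adjusted p = 0.00118), which called 2.76% of all genes. Among rd10 ages edgeR called 0 members at P18 against P15 (0.591% of all genes), at P21 against P15 (0.401%) and at P21 against P18 (0.0196%). In these 3 comparisons 3, 2 and 1 members had an unadjusted p under 0.05, against 12.9%, 12.8% and 10.8% of all genes. DESeq2 called 0 members in each, against 3%, 2.62% and 0.6% of all genes.

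The gamma crystallins of the lens, whose genes lie on chromosome 1, were read beside the members. Cryga had between 2 and 25 counts in every library. Crygb, Crygc and Crygd had 25, 31 and 18 counts in rd10 P18 replicate 1 and 0 in the other 7 libraries. Cryge had 50 counts there and 2 in rd10 P21 replicate 1, and Crygf had 0 throughout. In sum the cluster took 149 counts in rd10 P18 replicate 1 and 2 to 13 elsewhere.

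Rd10 P18 replicate 1 thus stood apart in the lens crystallins: 9 of the 10 members had counts there, against 4 or 5 in each other library. The other 9 members summed to 15.1 CPM in it and to 5.39 CPM in rd10 P18 replicate 2, against 1.63 and 1.78 CPM in the WT retinas. The rd10 retinas had 2.99 and 1.69 CPM at P15, and 4.85 and 3.43 CPM at P21. Both rd10 P18 libraries and both rd10 P21 libraries were therefore above the 4 libraries at P15, also when rd10 P18 replicate 1 is left aside. The closest were 3.43 CPM at P21 and 2.99 CPM in rd10 P15. Of single genes tested, 24.1% at P18 and 24.9% at P21 had both libraries above both of WT P15. The level of Cryab, in contrast, was lower in rd10 P18 replicate 1 than in the other 3 libraries of P18 and P21.

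**Figure D3:**
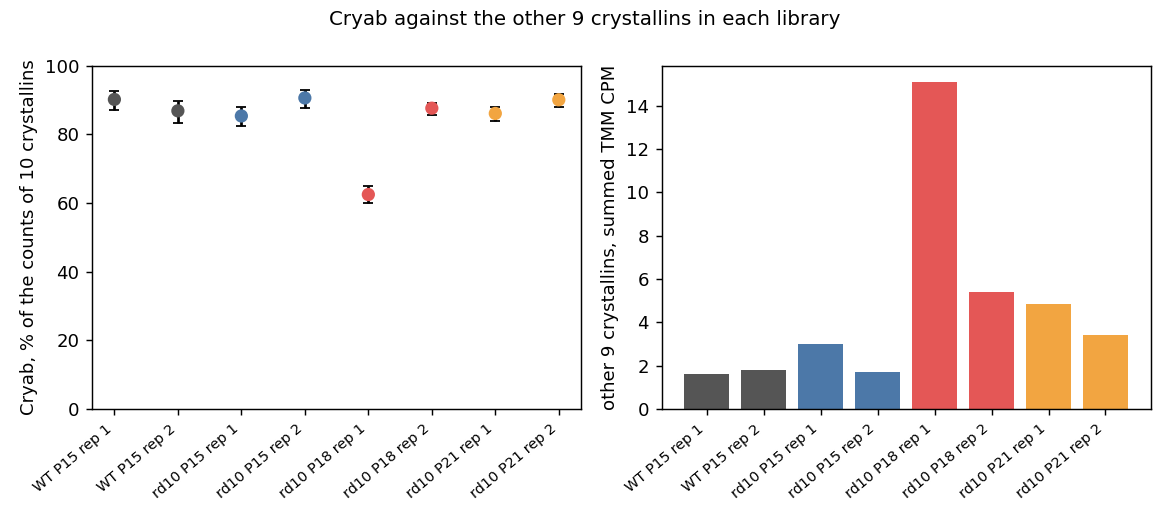
Left, Cryab as a percentage of the counts of all 10 members in each library, with 95% Wilson intervals that cover counting error only. Right, the summed level of the other 9 members in TMM-normalized CPM. Rd10 P18 replicate 1 stands at 62.5% and 15.1 CPM, and the other 7 libraries lie between 85.3% and 90.6% and at 5.39 CPM or less.

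Genes that define other tissues of the eye were read in the same libraries. Of 11 markers of lens fibre cells 7 had counts in any library, and Mip, Birc7, Dnase2b and Lctl had 0 in all 8. The list summed to 135 counts in rd10 P18 replicate 1, within the range of 21 to 178 in the other libraries, and all 7 detected markers had counts in it, against 2 to 4 in each other library. Cornea markers summed to 72 counts there and to 19 to 154 elsewhere, with Krt5 and Krt14 at 0 in all 8. Markers of the ciliary body and vitreous summed to 13206 counts in rd10 P18 replicate 1, within the range of 7883 to 14886 in the other libraries. Optc of that list, which is made in the ciliary body and secreted to the vitreous, was picked after its values were seen. It had 1826 counts in rd10 P18 replicate 1 and 2035 in rd10 P21 replicate 2, against 92 to 650 in the others. Pigment cell markers summed to 1555 counts in rd10 P18 replicate 1, against 989 to 9248 elsewhere. The part of these tissues in the crystallin counts was not tested.

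Set against the summed level of the other 9 members within each library, Cryab had a mean log2 ratio of 2.64 (SD 0.30) in WT P15, 2.65 (SD 0.41) in rd10 P15, 1.71 (SD 1.41) in rd10 P18 and 2.76 (SD 0.35) in rd10 P21 (n = 2, 0.5 CPM added to both). The differences from WT P15 were 0.007, -0.93 and 0.12, with exact two-sided permutation p-values of 1, 0.667 and 0.667, where 0.333 is the smallest that 2 against 2 allows. Without rd10 P18 replicate 1 the difference at P18 was 0.072.

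Per kilobase of exon, Cryab stood at 9.01 CPM per kb in WT P15 and at 21.4 CPM per kb in rd10 P18. Crybb3 stood at 0.465 and 2.17 CPM per kb in the same groups, and Crybb1 at 0.230 and 1.66 CPM per kb. In rd10 P18 replicate 1, where the lens crystallins were highest, the levels per kb were 17.0 for Cryab, 2.72 for Crybb3, 2.30 for Crybb1, 1.96 for Cryba4 and 1.14 for Cryaa. Cryab was thus the highest member per length in that library too.

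The library protocol in the labels names no step that marks strand, and how strand was counted is not stated, so reads of overlapping genes on opposite strands cannot be told apart. Cryab shares 252 exon bases, 17.0% of its own, with Hspb2, a small heat shock protein of muscle on the other strand. Hspb2 had 27 counts or fewer in any group, against 766 to 2051 for Cryab. Cryba1 overlaps Nufip2, Cryaa overlaps an antisense transcript and Crybb2 overlaps a pseudogene, so their few counts carry that uncertainty.

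Of 8 other genes with Hspb symbols, 6 were tested. Against WT P15, edgeR called 0 of them at P15, P18 and P21, where it called 0.23%, 1.48% and 0.386% of all genes. DESeq2 also called 0, against 2.13%, 4.74% and 2.76% of all genes. At an unadjusted p under 0.05 there were 0, against 12.3%, 17.4% and 11.8% of all genes. Their median log2 fold change was -0.06 at P15, 0.31 at P18 and 0.13 at P21, where the median of all genes was -0.01, 0.01 and 0.00. Hspb6 had log2 fold changes of -0.31 at P18 (SE 0.34, edgeR adjusted p = 0.693), which turned to 0.18 without rd10 P18 replicate 2, and 0.12 at P21 (SE 0.34, edgeR adjusted p = 0.954). Hspb8, a partner of the chaperone Bag3, had 0.25 at P18 (SE 0.23, edgeR adjusted p = 0.617).

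Of 9 other chaperones of the heat shock response, edgeR called 0 at P18 against WT P15 (1.48% of all genes) and DESeq2 called 1 (4.74%). An unadjusted p under 0.05 was found for 5 (17.4% of all genes). All 9 had a positive log2 fold change, as did 51% of all genes, with a median of 0.50. Hsph1, a cofactor of Hsp70, passed the adjusted p but not the fold threshold, at 0.86 (SE 0.13, edgeR adjusted p = 0.0257). Hspa1a and Hspa1b are near-identical copies of Hsp70 whose reads can be split between them. Between rd10 P18 and rd10 P15 they were called (0.591% of all genes), at 1.04 (SE 0.15, edgeR adjusted p = 0.0342) and 1.00 (SE 0.16, edgeR adjusted p = 0.0485). Both calls were lost without any 1 of the WT P15 and rd10 P15 libraries (edgeR adjusted p between 0.0565 and 0.286), and without rd10 P18 replicate 2 the log2 fold changes were 0.97 and 0.96. Against WT P15 the same genes stood at -0.83 and -0.76 in rd10 P15 (edgeR adjusted p = 0.0634 and 0.106) and at 0.21 and 0.25 in rd10 P18 (edgeR adjusted p = 0.51 and 0.479). At P21 against WT P15 the median of the 9 was -0.04. There 0 were called by edgeR (0.386% of all genes) or DESeq2 (2.76%), with 2 at an unadjusted p under 0.05 (11.8%).

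Crystallin genes that encode enzymes in other settings were read as well. Of 8 such genes and relatives with beta-gamma domains 7 were tested. Crym was the only one edgeR called in comparisons with WT P15, at P18 (1.48% of all genes) and P21 (0.386%). DESeq2 also called Cryzl2 at P18 (adjusted p = 0.0171), where it called 4.74% of all genes. Crym, a thyroid hormone binding protein related to a lens crystallin of marsupials, took 1378 and 1755 counts in the WT retinas, while the rd10 retinas had 3192 and 2601 counts at P15, 13415 and 9112 at P18 and 6275 and 3366 at P21. All libraries of each rd10 group lay above the WT libraries, as for 24.8%, 24.1% and 24.9% of all genes at P15, P18 and P21. Crym rose by a log2 fold change of 2.67 at P18 (SE 0.24, edgeR adjusted p = 0.00381) and by 1.46 at P21 (SE 0.23, edgeR adjusted p = 0.0487), where Cryab had 1.25 and 1.20.

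The call of Crym at P21 was lost without WT P15 replicate 1 (edgeR adjusted p = 0.307), WT P15 replicate 2 (0.176), either of the rd10 P15 libraries (0.0942 for replicate 1 and 0.0949 for replicate 2) or rd10 P21 replicate 1 (0.192), and with replicate number as a block (0.0579). Cryzl2, a quinone oxidoreductase-like gene, had a log2 fold change of 1.47 at P18 (SE 0.38, edgeR adjusted p = 0.103), and Cryl1, lambda crystallin, had 0.86 (SE 0.28, edgeR adjusted p = 0.172).

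A list of 10 genes read as markers of reactive Müller glia moved in the same libraries. Against WT P15, 9 of 10 were called higher at P18 (1.15% of all genes) and 6 of 10 at P21 (0.244%). Their median log2 fold changes were 3.41 and 2.00. At P15 the median was -0.80, and Edn2 was called lower, where 0.23% of all genes were called. Of 10 general Müller glia markers, edgeR called 0, 2 and 1 at P15, P18 and P21 (0.23%, 1.48% and 0.386% of all genes). Their medians were -0.05, 0.10 and 0.50. Which cells of the retina made these transcripts was not tested. Gfap, the intermediate filament of reactive glia, stood at 35.1 ± 11.1 CPM in the WT retinas (SD, n = 2), and in the rd10 retinas at 26.6 ± 2.17 CPM at P15, 381 ± 25.3 CPM at P18 and 123 ± 4.43 CPM at P21. It rose at P18 by a log2 fold change of 3.44 (SE 0.22, edgeR adjusted p = 0.000745). The mean of Gfap was lower at P21 than at P18, at 123 against 381 CPM, where Cryab had 30.5 and 31.6 CPM. All 10 rod markers had a negative log2 fold change at P21 against WT P15, where 50.1% of all genes had a positive one. Of the rod markers Gnat1 and Prph2 were called lower, as were 29 of all 20457 genes tested. The part of these cells in the level of Cryab was not tested.

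**Figure D4:**
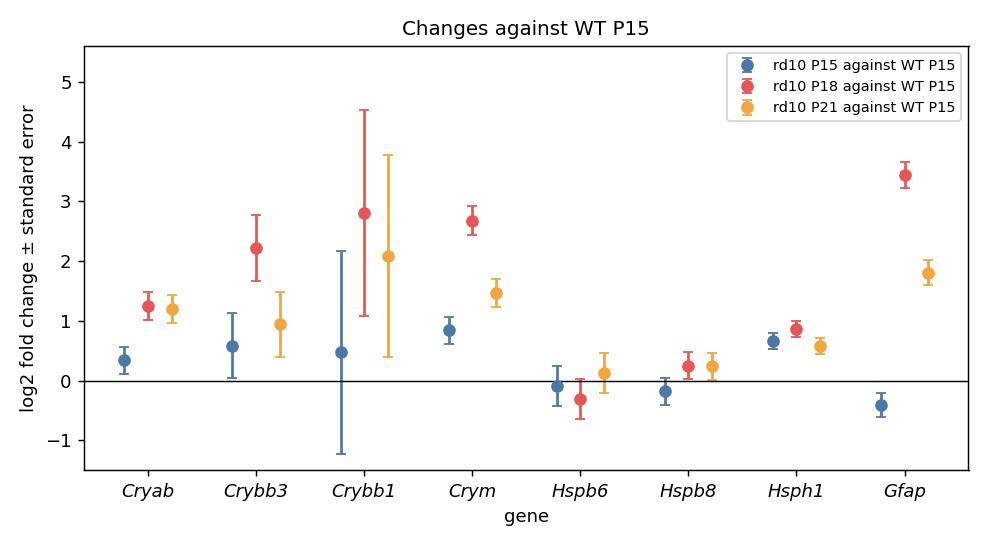
Log2 fold changes against WT P15 from edgeR, with standard errors as bars, for 3 crystallins, Crym, 3 chaperones (Hspb6, Hspb8 and Hsph1) and Gfap at the 3 rd10 ages. Cryab stands at 0.34, 1.25 and 1.20, Crym and Gfap are highest at P18 (2.67 and 3.44), and the bars of Crybb1 are the widest, with a standard error of 1.72 at P18.

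Maf, a transcription factor that binds the core TGCTGA, had a log2 fold change of 0.49 at P18 (SE 0.17, edgeR adjusted p = 0.198) and 0.63 at P21 (SE 0.17, edgeR adjusted p = 0.177) against WT P15, and was not called.

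The genes most like Cryab over the 8 libraries, by Pearson's r of log2 CPM among 12652 genes with a mean of at least 5 CPM, were Pgbd5 (0.982), Ampd2 (0.977), Cyp39a1 (0.974), Tnfrsf21 (0.965) and Prtg (0.964). For the summed level of the other 9 members they were Pnpla2 (0.989), Slc39a1 (0.987), Igfbp2 (0.983), Cd63 (0.977) and Ftl1 (0.976). The lists share no gene, and Cryab and the other 9 had an r of 0.655 with each other. Crym had an r of 0.938 with the other 9 and of 0.791 with Cryab. These values are descriptions over 8 libraries that share groups, with rd10 P18 replicate 1 at the end of the range for the other 9.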

How the data were processed

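Whole-retina poly(A) RNA of WT and rd10 mice was sequenced by the authors on an Illumina platform. The deposited values are raw read counts per Ensembl gene for 8 libraries, which the authors did not normalize. HISAT2 is named in the submitters' processing notes. The genome build, annotation and counting tool were not stated in the sources read. Symbols and positions were taken from GENCODE M21 (GRCm38), which named 52029 of 57010 identifiers.

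Genes were filtered with filterByExpr (minimum count 10, minimum total count 15), scaled by TMM and tested with edgeR 4.0.16 (quasi-likelihood, robust, R 4.3.3) on all 8 libraries. Benjamini-Hochberg adjustment covered 20457 genes, and calls needed an adjusted p under 0.05 with a log2 fold change above 1 in size. Alternatives were DESeq2 1.42.0, RLE or library size scaling, no filter, no fold threshold, no robust spread, only the 4 libraries compared, a replicate block and each library left out. The folds of Cryaa and Cryba4 without rd10 P18 replicate 1 were added after seeing the data. Levels per kb used the exon union. Groups at 0 were set to a floor of 3 counts over the group, and ratios with 1 to 3 counts have an exact binomial interval. Shares have Wilson intervals. Each library came from 1 retina, and the labels do not say whether the retinas of a group came from separate animals, so that p-values measure only the spread between these libraries. Depth is given in the results.

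The members, lists, tests and alternatives were chosen with earlier results of these data known. All members were named, and of each other list at most 4 genes with the lowest unadjusted p in any of the 6 comparisons. Optc was named in addition, after its values were seen. A list of transcription factors is not reported here, apart from Maf. Figures were drawn with matplotlib 3.10.9.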

Additional observations from a re-analysis of the deposited data

How the results depend on the processing

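With 2 libraries per group, single libraries decided the calls. The number of crystallins called at P18 against WT P15 was 1, and it was 2 by DESeq2, 0 with only the 4 libraries compared and 0 to 1 with a library left out. At P21 against WT P15 it was 0, and it was 1 by DESeq2, 1 without the filter on low counts, 1 with only the 4 libraries compared and 0 to 1 with a library left out. At P18 against rd10 P15 it was 0, and 0 to 1 with a library left out. RLE scaling, library size only, no robust spread and no fold threshold changed none of these counts.

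The numbers of the replicates did not pair the retinas: correlations of same-numbered deviations lay between -0.036 and 0.098. With replicate number as a block, the number called at P18 against WT P15 was 0 (Cryab adjusted p = 0.0689 by edgeR), and the other counts of crystallins called did not change.

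The difference from WT P15 in the log2 ratio of Cryab to the other 9 members turned its sign under some settings. This difference was -0.040 in rd10 P15 and -0.015 in rd10 P21 with a pseudocount of 0.1 CPM. In rd10 P18 it was 0.34 with the mean of log2 values in place of the sum. With a library left out the P15 value ranged from -0.28 to 0.30, the P18 value from -1.92 to 0.072 and the P21 value from -0.13 to 0.36.

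Of 570 refits of 38 named log2 fold changes, 564 kept the sign, and the other 6 each left out a library. Their results ranged, with a library left out, from -0.32 to 0.28 for Cryab at P21 against P18, from -0.18 to 1.08 for Crybb3 at P15 against WT P15, from -0.14 to 1.13 for Crybb3 at P21 against P15, from -5.85 to 6.33 for Crybb1 at P15 against WT P15 and from -1.04 to 0.18 for Hspb6 at P18 against WT P15. The cause was not tested. Depth limits the 9 members other than Cryab, none of which exceeded 213 counts in a library.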
